A study of Mus musculus with 6 samples.

Results

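Collagen chains are the products of the genes whose symbols run from Col1a1 upward, and they were taken here as every gene of the expression table whose symbol is Col, a type number, the letter a and a chain number. This gave 44 of the 23951 genes in the table. RNA from whole lesional skin of 3 JunBΔep mice, in which Junb is deleted in cells that express keratin 5, was compared with skin of 3 controls whose genotype is given as JunB +/+. The mice were C57Bl/6, 6 to 7 months old according to the labels, and no treatment is given. Whole skin also holds cells that never express keratin 5 and keep Junb, among them the dermal fibroblasts that make most collagen. The authors deposited FPKM values for each gene and mouse (fragments scaled by transcript length and by the mapped fragments of the library), so levels can be compared between genes per length. The 3 libraries of each genotype carry the replicate numbers 0, 1 and 2, so that control 0 and JunBΔep mouse 0 stand below for replicate 0 of each genotype, and 3 values given in a row follow this order.

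Collagens are built from 3 chains wound into a triple helix, and the helix requires a glycine at 1 residue in every 3 because no larger side chain fits at its centre. Fibrillar collagens, mainly types I and III in dermis, have a single long helix and assemble into the fibrils that give skin its tensile strength. Type IV collagens form the sheet-like network of basement membranes, type VII anchors the epidermal basement membrane to the dermis, FACIT collagens sit on the surface of fibrils, and transmembrane collagens such as type XVII span the membrane of epithelial and other cells. The chains are modified and folded in the endoplasmic reticulum, trimmed outside the cell and then crosslinked.

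The repeat can be read in the exons themselves, and 1 exon from the coding part of the helix is shown for each of the fibrillar, basement membrane, transmembrane and FACIT chains on which the results below turn. The sequences are from the mm9 build with the GENCODE vM1 annotation, on the coding strand from 5′ to 3′, and capitals mark the glycine codons (GGN) that open each triplet of residues and recur every 9 bases, while glycine codons at other positions of a triplet are left in lower case. Col1a1 exon 31 of 51 lies at chr11:94806814-94806912 on the plus strand, Col1a2 exon 31 of 52 at chr6:4477055-4477153 on the plus strand and Col3a1 exon 30 of 51 at chr1:45394086-45394184 on the plus strand. Col4a1 exon 44 of 52 lies at chr8:11211764-11211836, Col17a1 exon 29 of 54 at chr19:47736826-47736888 and Col22a1 exon 53 of 64 at chr15:71653066-71653110, all on the minus strand.
Col1a1 exon: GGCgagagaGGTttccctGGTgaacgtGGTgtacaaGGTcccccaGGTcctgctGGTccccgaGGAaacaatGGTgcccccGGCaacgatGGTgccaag
Col1a2 exon: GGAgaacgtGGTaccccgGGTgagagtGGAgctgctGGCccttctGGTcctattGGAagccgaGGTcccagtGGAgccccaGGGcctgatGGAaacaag
Col3a1 exon: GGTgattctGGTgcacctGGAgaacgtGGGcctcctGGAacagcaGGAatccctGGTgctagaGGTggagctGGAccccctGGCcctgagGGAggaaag
Col4a1 exon: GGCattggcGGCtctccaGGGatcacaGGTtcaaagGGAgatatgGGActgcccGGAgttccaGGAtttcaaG
Col17a1 exon: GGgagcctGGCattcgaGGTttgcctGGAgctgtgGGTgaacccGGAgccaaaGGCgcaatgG
Col22a1 exon: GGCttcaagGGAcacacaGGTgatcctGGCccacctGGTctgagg

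The 3 fibrillar exons are 99 bases long and hold 11 complete triplets each, so they begin and end with whole codons, whereas the Col4a1 and Col17a1 exons split a glycine codon at an end. Of the 44 chains, 43 had a position in this annotation and Col26a1 did not. The types differed in how long the repeat runs without a break, counting runs of at least 10 triplets. The 11 fibrillar chains had a longest run of 216 to 344 triplets, against 30 to 75 in the 9 basement membrane chains, 32 to 113 in the 9 FACIT chains and 40 to 55 in the 4 transmembrane chains. All 470 exons lying within the longest run of a fibrillar chain had a length that is a multiple of 9, and 284 of them were exactly 54 bases long. In the basement membrane chains 30 of 34 such exons were multiples of 9 and 3 were 54 bases long.

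Some libraries stood apart before any collagen was considered. Junb, the deleted gene, had 59.3, 72.4 and 56.9 FPKM in the controls. The library labelled JunBΔep replicate 0 held 129.6 FPKM of it, while 42.8 and 28.0 FPKM were found in those of replicates 1 and 2. Replicate 0 was above every control, so the level of Junb goes against its label. In the same library Krt14 is listed at 0 although Krt5 is at 3725 FPKM, and all 7 adipocyte markers, of which 0 were called, had their lowest value. JunBΔep replicate 2 had the highest adipocyte sum, at 10000 FPKM against at most 4019 FPKM elsewhere, and the highest endothelial sum. Control replicate 0 held liver transcripts, with 7 markers summing to 1751 FPKM against at most 29.6 FPKM elsewhere, and 0 of them were called. Skeletal muscle markers summed to 23240 to 30480 FPKM in controls against 2241 to 5396 FPKM in JunBΔep mice, and the groups did not overlap for 14 of 14, against 14.8% of all tested genes. Fibroblast markers, which define the main source of dermal collagen, summed to 1136, 1330 and 796 FPKM in controls 0, 1 and 2 against 1045, 496 and 843 FPKM in JunBΔep mice 0, 1 and 2. S100a4 alone made up 559 FPKM of this sum in JunBΔep mouse 0, so the sum of that library rested largely on 1 gene. The level of S100a4 was 146 and 222 FPKM in JunBΔep mice 1 and 2, while controls 0, 1 and 2 had 324, 496 and 186 FPKM of it. Of the 10 fibroblast markers, 0 were called by limma and 1 had groups that did not overlap, Dpt, which had lower values in JunBΔep mice.

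No collagen chain passed the test between JunBΔep and control skin. By their mean over the 6 mice the most abundant chains were those of types I and III, followed by Col17a1, although Col17a1 was the highest chain in control 1 and JunBΔep mouse 2. Values were compared on the log2(FPKM + 0.5) scale with limma, fitted over the 17021 genes that averaged 0.1 FPKM or more, two-sided, with Benjamini-Hochberg adjustment over all of them and a threshold of 0.05. On this scale the change of low genes is understated. Of the 44 chains, 38 were tested and 0 were called, against 1.38% of all tested genes, and the smallest adjusted p among the chains was 0.262 from limma. At an unadjusted p under 0.05 there was 1 chain, Col22a1, against 7.56% of all genes. The fitted change was below 0 for 24 chains and above 0 for 14, with a median of -0.17 on the log2 scale, where all tested genes had a median of 0.03 and 46.6% had a change below 0. The groups did not overlap for 4 of the 38 chains (10.5%), Col4a3, Col15a1, Col22a1 and Col6a5, all lower in JunBΔep mice, against 14.8% of all tested genes, 9.16% lower and 5.62% higher. In bulk skin, fewer cells of a type and less RNA per cell cannot be told apart.

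**Figure D1:**
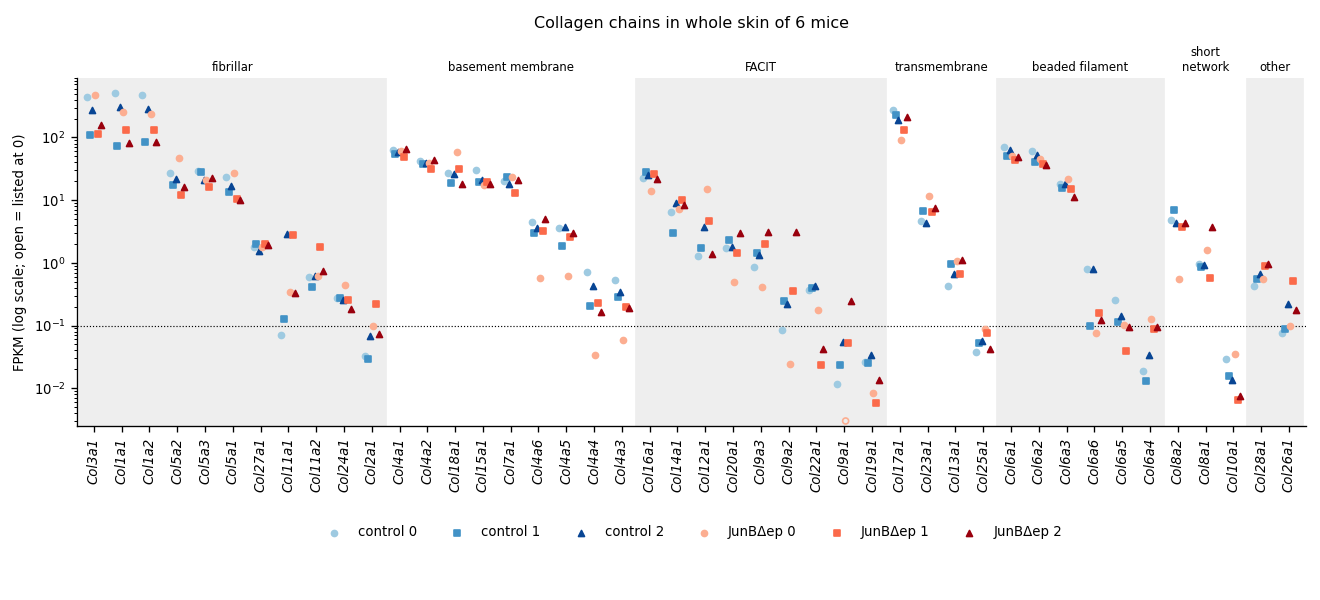
Level of each of the 44 collagen chains in each mouse, in FPKM on a log axis, with the chains grouped by type, controls in blue and JunBΔep mice in red, and a dotted line at the filter of 0.1 FPKM. An open circle at the axis edge marks Col9a1, listed at 0 in JunBΔep replicate 0. The chains run from under 0.1 FPKM to 505 FPKM, and in most chains the points of the genotypes interleave.

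**Figure D2:**
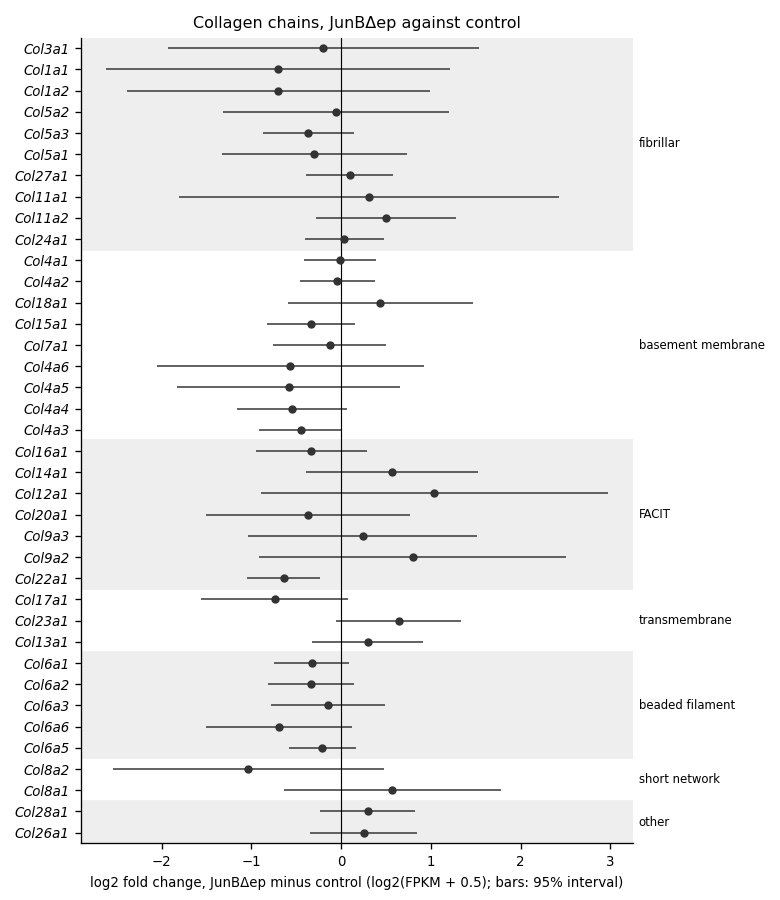
Log2 fold change of the 38 tested chains, JunBΔep minus control on the log2(FPKM + 0.5) scale, as points with 95% confidence intervals from limma, grouped by type. Every interval but that of Col22a1 includes 0, and the intervals of Col1a1, Col12a1 and Col3a1 are among the wide ones.

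The median spread of the chains between mice of 1 genotype was slightly above that of all tested genes. The SD of the log2 values over the 3 controls had a median of 0.26 over the 38 chains and 0.22 over all tested genes, and over the 3 JunBΔep mice it was 0.44 and 0.38. The widest spread among controls belonged to a fibrillar chain, at 1.44. Taken mouse by mouse against the control mean, 26.3% of the chains in JunBΔep replicate 0 were more than 1 log2 unit away (5 above and 5 below), where the share over all genes was 25.3%. The corresponding shares were 7.89% in JunBΔep replicate 1 and 13.2% in JunBΔep replicate 2, against 14.2% and 7.65% of all genes. All 44 chains together summed to 2153, 877 and 1471 FPKM in controls 0, 1 and 2 against 1523, 858.6 and 912.6 FPKM in JunBΔep mice 0, 1 and 2. Control replicate 1 thus lay among the JunBΔep mice, and JunBΔep replicate 0 among the controls.

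Fibrillar chains held the most abundant collagens and a wide spread between mice of the same genotype. Of 10 tested, 4 had a change above 0, 6 below 0 and 0 were called, with a median of -0.13 on the log2 scale. Col1a1 (chr11:94797538-94814356), the chain of which type I collagen holds a pair, was at 505, 73.9 and 308 FPKM in controls 0, 1 and 2 against 253, 130.1 and 80.6 FPKM in JunBΔep mice 0, 1 and 2. The controls alone spanned 6.83-fold, and control replicate 1 was the lowest of the 6 mice. The means were 296 ± 216 FPKM in controls against 154.5 ± 88.6 FPKM in JunBΔep mice (SD, n = 3 each), a log2 fold change of -0.70 with a 95% interval of -2.62 to 1.21 (adjusted p = 0.766 from limma). That change was -1.51 without control replicate 1 and -0.13 without control replicate 0.

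Col1a2 (chr6:4454814-4491543), the partner chain of type I, was at 469, 85.9 and 282 FPKM in controls against 235, 133 and 84.4 FPKM in JunBΔep mice, in the same order of replicates. Its log2 fold change was -0.70 with an interval of -2.39 to 0.99 (adjusted p = 0.740 from limma), or -0.17 without control replicate 0 and -1.39 without control replicate 1. Col3a1 (chr1:45368383-45406551), which forms type III collagen on its own, was at 439, 108 and 270.3 FPKM in controls against 474, 114 and 155 FPKM in JunBΔep mice. Here JunBΔep replicate 0 was the highest of the 6 mice and the groups overlapped over nearly their whole range. Its log2 fold change was -0.20 with an interval of -1.93 to 1.53 (adjusted p = 0.929 from limma), and it turned to 0.25 without control replicate 0 and to 0.21 without JunBΔep replicate 1. Together these 3 chains made up 65.6%, 30.5% and 58.5% of the summed collagen FPKM in control replicates 0, 1 and 2 and 63.1%, 43.9% and 35.1% in JunBΔep mice 0, 1 and 2.

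The ratio of Col3a1 to Col1a1, often read as a sign of young or remodelling dermis, overlapped between genotypes. It was 0.870, 1.46 and 0.877 in control replicates 0, 1 and 2 and 1.88, 0.880 and 1.93 in JunBΔep mice 0, 1 and 2, so that the 2 highest ratios were in JunBΔep mice and the 2 lowest in controls. Col5a1 and Col5a2, chains of the type V collagen found inside type I fibrils, were at 13.6 to 23.3 FPKM and 17.2 to 27.4 FPKM in controls against 9.88 to 26.6 FPKM and 11.9 to 47.3 FPKM in JunBΔep mice. Col5a3 was at 21.0 to 28.8 FPKM in controls against 16.0 to 22.8 FPKM in JunBΔep mice. The other fibrillar chains were below 3 FPKM in every mouse, and Col27a1, with 1.53 to 2.01 FPKM over the 6 mice, was among the least variable of them. Col11a2 and Col24a1, minor fibrillar chains, were at 0.408 to 0.619 FPKM and 0.258 to 0.277 FPKM in controls against 0.606 to 1.79 FPKM and 0.184 to 0.445 FPKM in JunBΔep mice.

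A pattern chosen after the values were seen ran across both genotypes. Xist, the RNA that coats the inactive X chromosome of female cells, reached 27.6 FPKM in control 1, 34.2 FPKM in JunBΔep mouse 1 and 30.3 FPKM in JunBΔep mouse 2, and stayed below 0.03 FPKM in the other 3 mice. Those with high Xist had the 3 lowest values of the 6 for 8 of the 38 tested chains, Col1a1, Col1a2, Col3a1, Col5a1, Col5a2, Col6a1, Col6a2 and Col6a3, and the 3 highest for 3 chains, Col27a1, Col9a2 and Col9a3. The other 27 chains, among them Col5a3, Col7a1 and Col15a1, did neither. Over all tested genes the shares were 5.41% lowest and 7.26% highest. Of the 54 tested enzymes and partners of collagen on a list described further on, 14 had their 3 lowest values in these mice, 1 its 3 highest and 39 neither. Those lowest included Creb3l1, a transcription factor of secretory cells that drives collagen export, with 9.12, 9.35 and 10.8 FPKM in these mice and 17.7 to 22.8 FPKM in the others, and Sec24d, a coat protein of the vesicles that carry procollagen, with 4.33 to 6.13 FPKM against 9.63 to 15.5 FPKM. P4hb, which is both a subunit of prolyl 4-hydroxylase and a protein disulphide isomerase, was at 182, 163 and 349 FPKM in controls against 447, 170.2 and 172 FPKM in JunBΔep mice. The labels give no sex, 1 control and 2 JunBΔep mice were on the high side, and the part of sex in the collagen values was not tested.

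**Figure D3:**
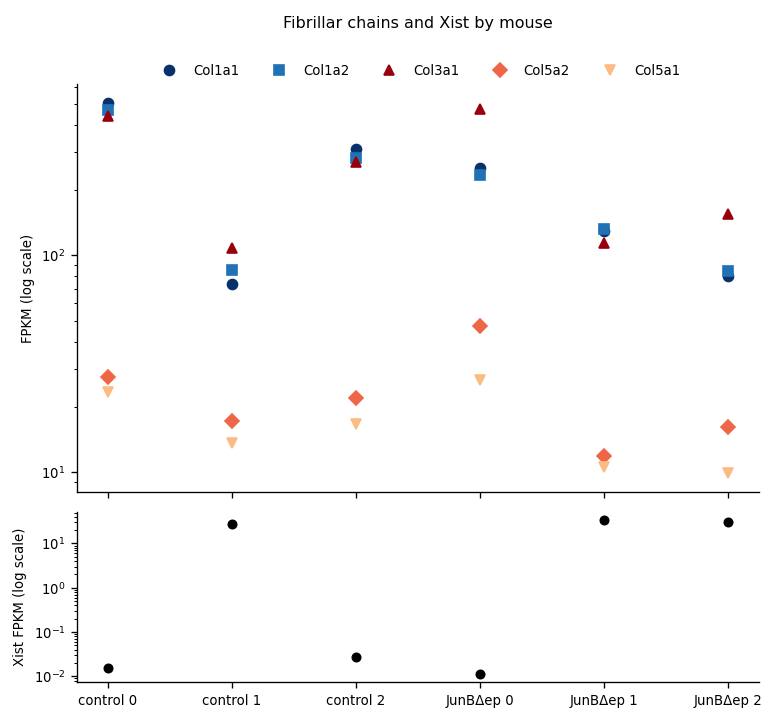
FPKM on a log axis of Col1a1, Col1a2, Col3a1, Col5a1, Col5a2 and, below, Xist in each of the 6 mice, 1 marker per gene and mouse. Control replicate 1 and JunBΔep replicates 1 and 2 have high Xist and the 3 lowest values of each of the 5 plotted chains, which were chosen for this pattern, and the other 3 mice have Xist below 0.03 FPKM.

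Basement membrane chains held a pair with nearly equal means in both genotypes, Col4a1 and Col4a2, beside several low chains whose lowest value was in JunBΔep replicate 0. Of 9 tested, 1 had a change above 0, 8 below 0 and 0 were called, with a median of -0.33 on the log2 scale. Col4a1 (chr8:11198423-11312826), the main chain of type IV collagen in most basement membranes, was at 62.0, 53.5 and 58.4 FPKM in controls 0, 1 and 2 against 60.5, 48.5 and 64.5 FPKM in JunBΔep mice 0, 1 and 2. The means were 58.0 ± 4.27 FPKM and 57.8 ± 8.32 FPKM (SD, n = 3 each), a log2 fold change of -0.01 with an interval of -0.41 to 0.39 (adjusted p = 0.984 from limma). Col4a2 (chr8:11312805-11449287), with which it forms the common heterotrimer, was at 41.7, 37.3 and 39.1 FPKM in controls against 39.6, 31.6 and 44.4 FPKM in JunBΔep mice. For Col4a2 the log2 fold change was -0.04 with an interval of -0.46 to 0.38 (adjusted p = 0.940 from limma). These are among the narrow intervals of the abundant collagens, and they still allow a change of about 0.4 log2 units either way.

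Col4a3, Col4a4, Col4a5 and Col4a6 encode the chains of specialised basement membranes, Col4a3 to Col4a5 being those altered in Alport syndrome. Col4a5 (chrX:137909928-138123778) was at 3.59, 1.86 and 3.72 FPKM in controls 0, 1 and 2 against 0.619, 2.58 and 2.99 FPKM in JunBΔep mice 0, 1 and 2. The low value of JunBΔep replicate 0 made most of its log2 fold change of -0.59 (SE 0.51, adjusted p = 0.724 from limma), which was -0.07 without that library. Col4a3 was at 0.540, 0.283 and 0.341 FPKM in controls against 0.0597, 0.194 and 0.189 FPKM in JunBΔep mice. All 3 JunBΔep values were below all controls, with a log2 fold change of -0.45 (SE 0.19, adjusted p = 0.673 from limma), or -0.998 with 0.1 added in place of 0.5 before the log. Col4a4 and Col4a6, looked at as the partners of these chains after their values were seen, also had their lowest value in JunBΔep replicate 0, at 0.0344 FPKM against 0.162 to 0.710 FPKM and at 0.578 FPKM against 3.03 to 4.94 FPKM.

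Col18a1 and Col15a1 encode the heparan or chondroitin sulphate-bearing collagens that link basement membranes to the tissue beneath. Col18a1, the source of the fragment endostatin, was at 26.9, 18.9 and 26.1 FPKM in controls 0, 1 and 2 against 57.5, 31.9 and 18.2 FPKM in JunBΔep mice 0, 1 and 2. Both the highest and the lowest mouse were JunBΔep, with a log2 fold change of 0.44 (SE 0.42, adjusted p = 0.736 from limma) that was 0.03 without JunBΔep replicate 0. Col15a1 was at 29.9, 19.8 and 20.8 FPKM in controls against 17.2, 19.5 and 18.1 FPKM in JunBΔep mice. Its groups did not overlap, by a margin of 19.8 against 19.5 FPKM between the nearest mice, and its log2 fold change was -0.33 (SE 0.20, adjusted p = 0.722 from limma), or -0.15 without control replicate 0. Col7a1, the anchoring fibril chain made by keratinocytes and fibroblasts, was at 17.8 to 23.7 FPKM in controls against 13.1 to 23.4 FPKM in JunBΔep mice.

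The FACIT chains included the chain with the smallest p of all collagens, Col22a1, which was a rare member. Of 7 tested, 4 had a change above 0, 3 below 0 and 0 were called, with a median of 0.24 on the log2 scale. Col22a1 (chr15:71626225-71864657), known from the junction of muscle and tendon and other tissue borders, was at 0.372, 0.401 and 0.421 FPKM in controls 0, 1 and 2 against 0.175, 0.0230 and 0.0429 FPKM in JunBΔep mice 0, 1 and 2. The controls lay close together and all JunBΔep mice were below them. The means were 0.398 ± 0.0247 FPKM and 0.0803 ± 0.0827 FPKM (SD, n = 3 each), and the log2 fold change was -0.64 with an interval of -1.05 to -0.23 (unadjusted p = 0.00839, adjusted p = 0.262 from limma). With 0.1 in place of 0.5 added before the log, the change was -1.56. Of the 14 skeletal muscle markers, 11 were called lower in the JunBΔep mice, against 1.38% of all tested genes, and Pvalb, Actn3 and Myh4 did not pass. The 11 calls were lost without any single control, without JunBΔep replicate 1 and with a replicate block, settings under which no gene of the table was called. Meanwhile 6 tendon and junction markers, of which 0 were called, summed to 20.7 to 41.3 FPKM in controls against 14.6 to 20.9 FPKM in JunBΔep mice. The part of muscle content in the Col22a1 value was not tested.

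Col12a1 (chr9:79446798-79566638), a fibril-associated chain of tendon, ligament and fascia, was at 1.30, 1.74 and 3.68 FPKM in controls 0, 1 and 2 against 14.9, 4.60 and 1.36 FPKM in JunBΔep mice 0, 1 and 2. JunBΔep replicate 0 stood above all others, and JunBΔep replicate 2 lay within the controls. Its log2 fold change of 1.04 (95% interval -0.89 to 2.97, adjusted p = 0.722 from limma) was 0.27 without JunBΔep replicate 0. Col14a1, which binds decorin on fibrils, was at 6.51, 2.99 and 8.90 FPKM in controls against 7.34, 10.2 and 8.35 FPKM in JunBΔep mice, a log2 fold change of 0.56 (adjusted p = 0.722 from limma) that was 0.16 without control replicate 1 and 0.87 without control replicate 2. Col16a1, a minor fibril-associated chain of dermis, was at 22.8, 28.1 and 24.9 FPKM in controls against 14.0, 26.0 and 21.5 FPKM in JunBΔep mice. It was the highest FACIT chain in every mouse but JunBΔep mouse 0, where Col12a1 exceeded it. The log2 fold change of Col16a1 was -0.33 (adjusted p = 0.722 from limma), and -0.09 without JunBΔep replicate 0.

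Among the cartilage-type chains, Col11a1 was high in 2 libraries, and Col9a2 and Col9a3 were highest in JunBΔep replicate 2. Col11a1 (chr3:113733458-113923636), a fibrillar chain that nucleates fibrils in cartilage and was picked after its values were seen, was at 2.85 FPKM in control replicate 2 and 2.75 FPKM in JunBΔep replicate 1, and at 0.0696 to 0.347 FPKM in the other 4 mice. Markers of the hair matrix and shaft were high in the same libraries. These 8 genes, of which 0 were called, summed to 1045 and 1767 FPKM in them and to 20.4 to 78.4 FPKM in the others, and all 8 had these as their highest 2 libraries. The 9 cartilage markers also had their highest sums in these libraries, 18.4 and 23.6 FPKM against 11.4 to 17.6 FPKM in the others, most of it from Sox9, which hair follicles express as well, at 16.3 and 21.6 FPKM. Acan, the cartilage proteoglycan aggrecan, was also highest there, at 0.584 and 0.967 FPKM, whereas Comp, a cartilage matrix protein, was lowest there, at 0.471 and 0.482 FPKM. Cartilage markers thus summed to 13.1 to 18.4 FPKM in controls against 11.4 to 23.6 FPKM in JunBΔep mice and bone markers to 3.45 to 5.70 FPKM and 5.20 to 7.73 FPKM, with 0 called on either list. Col9a2 and Col9a3, FACIT chains of cartilage also picked after their values were seen, were highest in JunBΔep replicate 2, at 3.16 and 3.06 FPKM, against at most 0.360 and 1.97 FPKM in the other mice, and Col8a1 was highest there too. That library had the lowest sum of cartilage markers of all mice, 11.4 FPKM. Col20a1, another FACIT chain, was at 1.75 to 2.35 FPKM in controls against 0.496 to 2.96 FPKM in JunBΔep mice. The part of hair or cartilage content in the Col11a1 values was not tested.

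**Figure D4:**
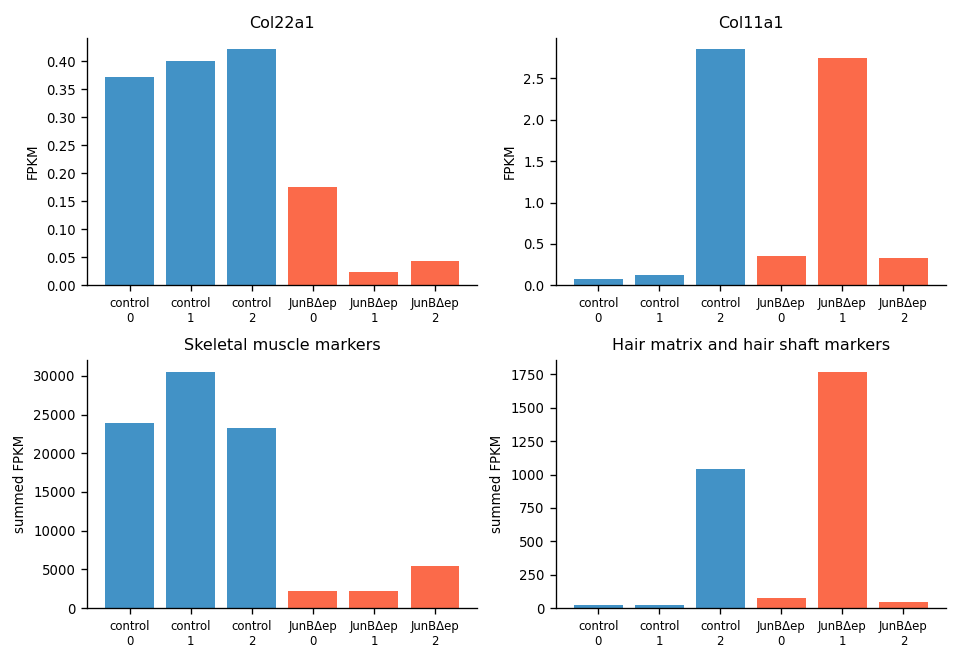
Bars of FPKM by mouse on linear axes from 0, blue for controls and red for JunBΔep mice. Col22a1 stands above the sum of 14 skeletal muscle markers and Col11a1 above the sum of 8 hair matrix and shaft markers. Col22a1 and the muscle markers are lower in all JunBΔep mice than in all controls, and Col11a1 is high in control replicate 2 and JunBΔep replicate 1, as the hair matrix markers are.

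Among transmembrane chains, the hemidesmosome collagen Col17a1 was by far the highest and had lower values in JunBΔep replicates 0 and 1. Of 3 tested, 2 had a change above 0, 1 below 0 and 0 were called. Col17a1 (chr19:47720834-47766584), which fastens basal keratinocytes to the basement membrane and is made by the keratin 5-expressing cells in which Junb was deleted, was at 274, 229.5 and 188 FPKM in controls 0, 1 and 2 against 92.3, 130.0 and 209.6 FPKM in JunBΔep mice 0, 1 and 2. JunBΔep replicate 2 lay inside the control range. The means were 231 ± 43.2 FPKM and 144 ± 59.9 FPKM (SD, n = 3 each), a log2 fold change of -0.74 with an interval of -1.56 to 0.07 (unadjusted p = 0.0677, adjusted p = 0.694 from limma). It was -0.46 without JunBΔep replicate 0 and -1.05 without JunBΔep replicate 2. Of the 7 basal keratinocyte markers, 0 were called, and they summed to 3684 to 6392 FPKM in controls against 3820 to 4198 FPKM in JunBΔep mice. In JunBΔep replicate 0 this sum mixes opposite extremes. Krt5, Itga6 and Itgb4 had their highest values there, at 3725, 67.0 and 78.3 FPKM. Krt14, Krt15 and Dst had their lowest there, at 0, 80.7 and 14.9 FPKM, and Trp63 had neither. The part of basal keratinocyte content in the Col17a1 values was not tested.

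Col23a1, a transmembrane chain that is also shed from the surface, was at 4.67, 6.68 and 4.38 FPKM in controls 0, 1 and 2 against 11.5, 6.56 and 7.55 FPKM in JunBΔep mice 0, 1 and 2. A single control, replicate 1, reached the level of the JunBΔep mice, and the log2 fold change was 0.64 with an interval of -0.05 to 1.33 (adjusted p = 0.690 from limma), or 0.41 without JunBΔep replicate 0. Col13a1, found at cell contacts and the neuromuscular junction, was at 0.429, 0.955 and 0.664 FPKM in controls against 1.07, 0.660 and 1.10 FPKM in JunBΔep mice, a log2 fold change of 0.30 (adjusted p = 0.723 from limma) that was 0.13 without control replicate 0.

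The 5 tested beaded filament chains of type VI, which form fine filaments around cells and fibrils, had a change below 0 and 0 were called, with a median of -0.33 on the log2 scale. Col6a1 was at 69.2, 49.9 and 63.1 FPKM in controls 0, 1 and 2 against 50.4, 44.1 and 49.1 FPKM in JunBΔep mice 0, 1 and 2, and Col6a2 at 59.8, 40.7 and 53.3 FPKM and 46.1, 37.8 and 36.8 FPKM. Their log2 fold changes were -0.33 and -0.34 (adjusted p = 0.722 for each from limma), the latter -0.22 without control replicate 0, and control replicate 1 lay within the range of the JunBΔep mice. Col6a3, the large remaining chain of the trimer, was at 18.0, 15.7 and 18.0 FPKM in controls against 21.9, 15.0 and 11.2 FPKM in JunBΔep mice, and its log2 fold change of -0.15 (adjusted p = 0.846 from limma) turned to 0.07 without JunBΔep replicate 2.

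Of the rarer type VI chains, which can take the place of Col6a3, Col6a6 was at 0.785, 0.0984 and 0.801 FPKM in controls against 0.0756, 0.159 and 0.124 FPKM in JunBΔep mice. Control replicate 1 lay with the JunBΔep mice, and the log2 fold change was -0.69 (SE 0.33, adjusted p = 0.719 from limma), or -1.06 without control replicate 1 and -1.32 with 0.1 added before the log. Col6a5 was at 0.255, 0.114 and 0.143 FPKM in controls against 0.103, 0.0390 and 0.0950 FPKM in JunBΔep mice, groups that did not overlap at levels near the filter, with a log2 fold change of -0.21 (adjusted p = 0.722 from limma), or -0.58 with 0.1 added before the log.

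Col8a1 and Col8a2, the short network chains of vessel walls and of the membrane beneath the corneal endothelium, had fitted changes of opposite sign. Col8a2 was at 4.77, 7.01 and 4.30 FPKM in controls 0, 1 and 2 against 0.557, 3.76 and 4.38 FPKM in JunBΔep mice 0, 1 and 2. Its log2 fold change of -1.04 (SE 0.62, adjusted p = 0.722 from limma) was -0.33 without JunBΔep replicate 0. Col8a1 was at 0.964, 0.849 and 0.939 FPKM in controls against 1.57, 0.564 and 3.70 FPKM in JunBΔep mice. Its log2 fold change of 0.57 (adjusted p = 0.724 from limma) was 0.07 without JunBΔep replicate 2 and 1.06 without JunBΔep replicate 1. None of the 8 endothelial markers was called, and they summed to 93.5 to 159 FPKM in controls against 60.6 to 231 FPKM in JunBΔep mice. None of the 7 pericyte and smooth muscle markers was called, with sums of 122 to 187 FPKM against 73.8 to 207.5 FPKM. Col28a1, found around Schwann cells, was at 0.424, 0.547 and 0.675 FPKM in controls against 0.544, 0.886 and 0.948 FPKM in JunBΔep mice, and 8 Schwann cell markers summed to 154 to 293 FPKM and 63.8 to 275 FPKM, with 0 called. Col26a1, the last of the tested chains, was at 0.0766, 0.0891 and 0.219 FPKM in controls against 0.0992, 0.514 and 0.177 FPKM in JunBΔep mice.

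The remaining 6 chains, Col2a1, Col6a4, Col9a1, Col10a1, Col19a1 and Col25a1, had a mean under 0.1 FPKM and were not tested. They lay between 0 and 0.247 FPKM, and Col2a1 and Col10a1, the defining chains of cartilage and of its growth plate, reached at most 0.221 and 0.0357 FPKM. Col9a1 is listed at 0 in JunBΔep replicate 0. The genotypes did not overlap for 3 of them. Col2a1 was at 0.0327, 0.0293 and 0.0686 FPKM in controls against 0.0998, 0.221 and 0.0744 FPKM in JunBΔep mice. Col6a4 was at 0.0186, 0.0130 and 0.0341 FPKM in controls against 0.126, 0.0894 and 0.0963 FPKM in JunBΔep mice. Col19a1 was at 0.0262, 0.0251 and 0.0341 FPKM in controls against 0.00848, 0.00574 and 0.0136 FPKM in JunBΔep mice. Over all 44 chains the groups thus did not overlap for 7 (15.9%), 5 lower and 2 higher in JunBΔep mice. The share was 14.8% among all tested genes. It was 7.60% among the 3264 genes of the table under the filter and above 0 in some mouse. At these levels no fold is given.

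Ratios between chains were taken for pairs that assemble in the same triple helix or whose genes lie side by side, and for some other pairs. Col4a1 and Col4a2 lie head to head on chromosome 8 and their first exons overlap by 22 bases on opposite strands, and Col4a3 and Col4a4 lie head to head on chromosome 1 with 71 bases between their starts. These stretches are shown because each pair shares them as the space between its start sites (mm9, plus strand, all in lower case since no part is marked). The first is at chr8:11312805-11312826 with a GC content of 72.7%, and the second at chr1:82583425-82583495 with 69.0%.
Col4a1 and Col4a2 shared exon bases: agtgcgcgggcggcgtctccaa
Between Col4a3 and Col4a4: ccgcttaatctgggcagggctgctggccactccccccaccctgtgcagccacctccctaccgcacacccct

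The ratio of Col4a1 to Col4a2 was 1.43 to 1.53 over the 6 mice, a span of 1.07-fold, while the chains themselves spanned 1.33-fold and 1.41-fold. Col6a1 and Col6a2, on the same strand of chromosome 10 with 85161 bases between them, had a ratio of 1.09 to 1.34. Col1a1 and Col1a2 lie on different chromosomes, and their ratio of 0.861 to 1.09 spanned 1.27-fold where the chains spanned 6.83-fold and 5.55-fold. The head-to-head pair Col4a5 and Col4a6 on the X chromosome, with 1308 bases between starts, had a ratio of 0.605 to 1.07, against spans of 6.00-fold and 8.54-fold for the chains. The ratio of Col5a2 to Col5a1 was 1.12 to 1.78 and spanned 1.58-fold, where the chains spanned 3.97-fold and 2.69-fold. The ratio was looser for the low pair Col4a3 and Col4a4, at 0.760 to 1.74, where the chains spanned 9.04-fold and 20.7-fold. The neighbours Col3a1 and Col5a2, with 24614 bases between them, had a ratio that spanned 2.57-fold, where the chains spanned 4.40-fold and 3.97-fold. The last 2 pairs neither share a triple helix nor lie side by side. The ratio of Col3a1 to Col1a1 spanned 2.21-fold where the chains spanned 4.40-fold and 6.83-fold. That of Col4a4 to Col4a1 spanned 20.2-fold where the chains spanned 20.7-fold and 1.33-fold. The genotypes overlapped in each of these ratios, and the highest and the lowest Col4a5 to Col4a6 ratios were both in JunBΔep mice.

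**Figure D5:**
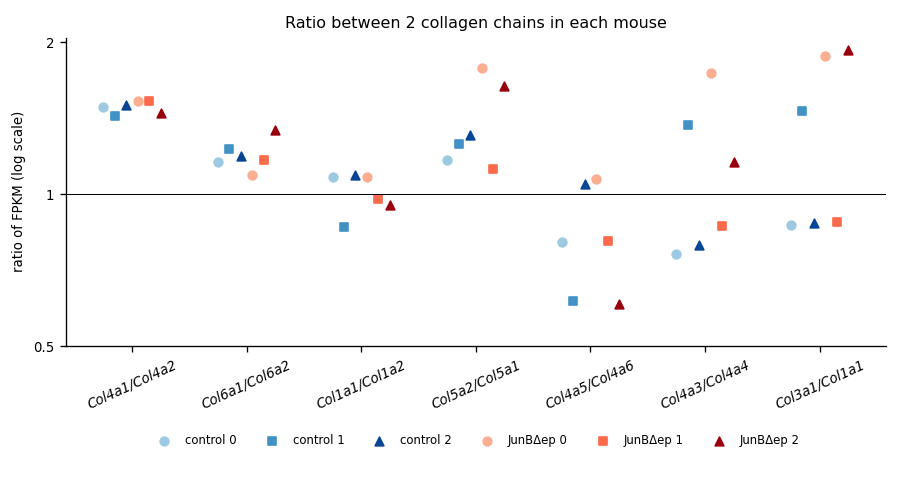
Ratio of the FPKM of paired collagen chains in each mouse, on a log axis, controls in blue and JunBΔep mice in red. The Col4a1 to Col4a2 ratio stays between 1.43 and 1.53 in all 6 mice, and the Col4a3 to Col4a4 and Col3a1 to Col1a1 ratios spread more than 2-fold.

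The enzymes and partners of collagen gave the same count as the chains. Of 62 listed genes, 57 were in the table, 54 were tested and 0 were called by limma, against 1.38% of all tested genes, with 5 lower and 0 higher at an unadjusted p under 0.05, against 7.56% of all tested genes. The change was below 0 for 34 and above 0 for 20, with a median of -0.09 on the log2 scale, and the groups did not overlap for 9 (16.7%, against 14.8% of all genes), 8 of them lower in JunBΔep mice. By role, 7 of the 14 prolyl and lysyl modification genes, 5 of 8 folding and secretion genes, 5 of 7 propeptide processing genes, 5 of 6 crosslinking genes, 9 of 10 fibril-binding genes and 3 of 9 receptors had a change below 0.

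The groups did not overlap for 3 of 7 propeptide processing genes and 4 of 10 fibril-binding genes, against 1 of 14 modification genes, 0 of 8 folding and secretion genes, 0 of 6 crosslinking genes, 1 of 9 receptors and 14.8% of all tested genes. These are small lists set by hand, and 0 of their genes were called. Pcolce2, an enhancer of the protease that trims the C-terminal propeptide of fibrillar procollagen, was at 56.1, 39.9 and 36.4 FPKM in controls 0, 1 and 2 against 6.23, 9.52 and 23.2 FPKM in JunBΔep mice 0, 1 and 2. Its log2 fold change was -1.91 (SE 0.48, adjusted p = 0.227 from limma), and without JunBΔep replicate 2 it was -2.42 with an adjusted p of 0.0321 from limma. Its relative Pcolce was at 94.1, 74.2 and 59.6 FPKM in controls against 53.2, 33.7 and 45.1 FPKM in JunBΔep mice, a log2 fold change of -0.78 (adjusted p = 0.435 from limma). Adamts14, a protease that removes the N-terminal propeptide, was at 10.3, 6.78 and 6.04 FPKM in controls against 1.31, 3.78 and 5.93 FPKM in JunBΔep mice.

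Ogn, or mimecan, a small leucine-rich proteoglycan of the dermis, was at 36.7, 45.5 and 31.8 FPKM in controls 0, 1 and 2 against 3.06, 8.91 and 16.4 FPKM in JunBΔep mice 0, 1 and 2, a log2 fold change of -2.20 (SE 0.56, adjusted p = 0.240 from limma). Aspn, a related protein that binds type I collagen, was at 21.2, 16.2 and 17.3 FPKM in controls against 9.49, 4.83 and 9.06 FPKM in JunBΔep mice, a log2 fold change of -1.22 (SE 0.29, adjusted p = 0.194 from limma). Tnxb, tenascin X, whose loss causes a form of Ehlers-Danlos syndrome, was at 49.8, 34.3 and 33.2 FPKM in controls against 13.1, 13.3 and 30.2 FPKM in JunBΔep mice, a log2 fold change of -1.12 (adjusted p = 0.464 from limma). In all 3 the JunBΔep mice lay below every control, without passing the test.

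Of the most abundant partners, Sparc, a collagen chaperone outside the cell, was at 662, 356 and 416 FPKM in controls 0, 1 and 2 against 349, 251 and 351 FPKM in JunBΔep mice 0, 1 and 2, also without overlap. Dcn, or decorin, which spaces fibrils, was at 776, 395 and 540 FPKM in controls against 460.2, 199.6 and 336 FPKM in JunBΔep mice, and JunBΔep replicate 0 lay within the controls. Bgn, or biglycan, was at 79.7, 89.7 and 104 FPKM in controls against 195, 104 and 67.7 FPKM in JunBΔep mice. Serpinh1, the collagen-specific chaperone of the endoplasmic reticulum, was at 121, 95.6 and 110.1 FPKM in controls against 100.7, 112 and 111 FPKM in JunBΔep mice. Itga11, the collagen receptor subunit of fibroblasts, was at 3.71, 1.71 and 3.29 FPKM in controls against 1.57, 1.42 and 1.60 FPKM in JunBΔep mice, lower without overlap. P4ha3, a catalytic subunit of prolyl 4-hydroxylase, was the only listed gene higher without overlap, at 3.94, 0.0854 and 0.0809 FPKM in JunBΔep mice against 0.00975 to 0.0806 FPKM in controls, so that all but replicate 0 lay at the edge of the control range.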

How the data were processed

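Poly(A) RNA of whole skin from 3 control and 3 JunBΔep mice was sequenced from strand-specific libraries. The authors aligned the reads to mm9 with TopHat through the nextpresso pipeline and the iGenomes annotation. What they deposited is 1 table of FPKM for each gene in each mouse. Which program computed the FPKM is not given in the sources read. The submitters' processing notes name FastQC, TopHat2 2.0.10, Bowtie 1.0.0, SAMtools 0.1.19 and Cufflinks with no roles. The authors themselves tested read counts with DESeq2, and those counts were not used here. A mouse's FPKM summed to between 481078 and 630363. Without read numbers, the depth is unknown and intervals for counting error could not be given.

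The FPKM values were used as deposited, put on the log2(FPKM + 0.5) scale, and tested by limma (version 3.58.1, R 4.3.3, trend on, no covariate) in the 17021 genes that averaged 0.1 FPKM or more. An exact permutation test of 3 against 3 cannot go below p = 0.1. The p-values measure only the spread between these samples, since the labels do not describe how the replicates were taken. The procedure was tested on simulated data. The collagen chains, the pathway list, the marker lists and the tests were chosen with earlier results of these data known, and types and roles were assigned by hand. Values per mouse are given for the 3 most abundant chains of each type, the chain with the largest change, chains whose groups do not overlap and, of the pathway list, genes without overlap and the 5 most abundant, and other genes are said to be chosen after their values were seen. Positions, exons and sequences were read from mm9 with GENCODE vM1. Col21a1 and Col29a1 were listed but are no rows of the table. Python 3.11.15 with pandas 2.3.3 made the tables, and matplotlib 3.10.9 drew the figures.

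The alternatives were a pseudocount of 0.1 or of 1, testing every gene, a stricter filter at 1 FPKM, median-ratio rescaling, quantile normalization, limma without trend, robust limma, a replicate block, an adjusted p of 0.1, and leaving out each mouse or both replicates 0.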

Additional observations from a re-analysis of the deposited data

How the results depend on the processing

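Under every alternative run 0 collagen chains were called, but in the runs that called 0 genes over the whole table this was bound to follow. In the main run 1.38% of all tested genes were called, so 0 calls among 38 chains say little. The median log2 fold change of the chains stayed below 0 in every setting. It was -0.24 to -0.09 with mice left out and -0.20 to -0.05 under the other settings, against -0.17. The number of genes called over the whole table was 235 in the main run and varied between settings. It was 0 with a replicate block, 0 to 254 with a mouse left out (0 without any single control or without JunBΔep replicate 1, 135 without JunBΔep replicate 0 and 254 without JunBΔep replicate 2) and 0 without both replicates 0. The labels do not say whether the replicate numbers pair the mice. The deviations of same-numbered mice from their group means correlated at r = 0.12, -0.23 and -0.43 for numbers 0, 1 and 2 over 17021 genes. Not every mouse correlated best with its own number. With 3 mice per group these correlations cannot decide whether the mice were paired. The block called 0 genes of the whole table, so its 0 collagen chains are uninformative. Of the 30 genes whose fold change was followed, 25 kept their direction in every setting in which they were tested, and 7 low genes fell below a filter in at least 1 setting and had no value there. The other 5 reversed when mice were left out, Col3a1 over a range of -0.81 to 0.25 (0.25 and 0.21 on the other side), Col4a1 over -0.094 to 0.11 (0.0387, 0.1097 and 0.0016), Col4a2 over -0.15 to 0.0925 (0.0008 and 0.0925), Col4a5 over -0.89 to 0.0563 (0.0563 without both replicates 0) and Col6a3 over -0.39 to 0.072. With a single mouse left out, 20 of the 30 moved by over 1.5 times in at least 1 case, among them Col1a1 (-1.51 to -0.13), Col1a2 (-1.39 to -0.17), Col12a1 (0.01 to 1.79, the former without both replicates 0), Col14a1 (0.16 to 0.87), Col16a1 (-0.53 to -0.09), Col18a1 (0.03 to 0.84) and Col8a2 (-1.44 to -0.33). Pcolce2 was the only one to pass the threshold, without JunBΔep replicate 2. The cause was not tested.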
